A study of Mus musculus with 24 samples.

Results

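Of the 24454 gene identifiers in the count table, 10 were followed here. These 10 genes encode noncoding host transcripts of small nucleolar RNAs (snoRNAs), known to be cleared by nonsense-mediated decay (NMD). They are Gas5, Snhg1, Snhg5, Snhg6, Snhg8, Snhg12, Snhg15, Snhg17, Zfas1 and Epb41l4aos. The 10 members were chosen by symbol, as known NMD substrates that report on translation, with earlier results of these data known. The table also holds other noncoding snoRNA hosts, described below. All 10 were present in the table and all 10 passed the filter on low counts, as did 16317 identifiers in all.

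Organs of Corti (OCs) of 5-day-old C57BL/6N mice of both sexes were first held for 24 h in medium that contained penicillin and serum. Exposure then lasted 6 or 24 h, to 50 μM gentamicin in the GM group, to 10 μM pioglitazone in the PIO group and to both drugs in the PIO + GM group, while the CTRL group received neither. Each of the 8 groups held 3 libraries (24 in all), and each library came from 6 pooled OCs, so a value describes a mixture of cell types and several animals. Total counts per library ranged from 7211357 to 15548856, and the 10 members held between 32 and 6480 counts in a library. Of 7 hair cell markers (Myo7a, Pou4f3, Gfi1, Otof, Slc26a5, Myo6 and Ocm), none was at 0 in all libraries, and their summed level ranged from 420 to 773 CPM (counts scaled to library size) at 6 h and from 557 to 970 CPM at 24 h.

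The introns of these genes carry snoRNAs, which guide the chemical modification or the processing of other RNAs, mainly ribosomal RNA. Splicing frees the snoRNA and leaves an exonic RNA with short open reading frames and no long protein product. When a ribosome translates such a frame and stops upstream of an exon junction, the helicase UPF1 and its partners send the RNA to decay, so that slower translation or weaker NMD leaves more of it. Gentamicin is an aminoglycoside antibiotic that binds bacterial ribosomes and can also act on decoding by eukaryotic ribosomes. It damages hair cells. Pioglitazone activates PPAR-γ, a nuclear receptor that controls genes of lipid and glucose metabolism. The comparison of cultures with and without gentamicin therefore asked whether host transcripts were raised by the drug.

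The intronic snoRNAs are the parts of these genes that NMD does not reach. RefSeq lists 31 snoRNA genes within the 10 members, and 9 of them had a row of their own in the table. Snord22, in Snhg1, and Snora44, in Snhg12, are shown because their counts changed less with time than those of their hosts. Snord47, in Gas5, and Snora24, in Snhg8, are shown because the letters of a box motif were found in them. Sequences are those of GENCODE on build GRCm38, written 5′ to 3′ as DNA.
Snord22 (chr19:8725866-8725991, 126 bases): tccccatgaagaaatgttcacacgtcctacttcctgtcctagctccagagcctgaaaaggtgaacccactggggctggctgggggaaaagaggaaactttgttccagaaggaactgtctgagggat
Snora44 (chr4:132309941-132310069, 129 bases): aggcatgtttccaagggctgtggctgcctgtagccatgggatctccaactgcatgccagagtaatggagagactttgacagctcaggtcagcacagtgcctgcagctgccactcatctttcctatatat
Snord47 (chr1:161038082-161038158, 77 bases): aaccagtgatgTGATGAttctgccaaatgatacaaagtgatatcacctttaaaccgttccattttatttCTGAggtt
Snora24 (chr3:123507937-123508066, 130 bases): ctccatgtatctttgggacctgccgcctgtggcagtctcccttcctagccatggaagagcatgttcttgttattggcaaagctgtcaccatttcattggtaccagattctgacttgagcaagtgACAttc
Capitals in Snord47 mark the C box (TGATGA) and the D box (CTGA) of the box C/D class, which guides ribose methylation. Both were searched on the transcript's strand, the D box downstream of the C box, and 24.0% of 1507 GENCODE snoRNA transcripts held them. Capitals in Snora24 mark the ACA that lies 3 bases before the end of box H/ACA snoRNAs, which guide pseudouridylation, and 18.3% of the 1507 held it. No capitals in Snord22 and Snora44 means that neither held a C box with a D box downstream, nor an ACA at that distance from the end.

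Several snoRNA hosts begin with a run of pyrimidines after a C, the form of start known from messenger RNAs of ribosomal proteins. Start sites in RefSeq (GRCm38.p6) were listed for 8 of the 10 members, with 10 starts among them, and Snhg6 and Epb41l4aos were not included. A run of at least 5 C or T that began with C within 10 bases of the start, on the gene's strand, was found at 4 of these 10 starts (40%). It was found at 30.7% of 32851 starts of all genes, so the share among the members was near that of the genome. The 4 starts with such a run are shown as 50 bases, with the run in capitals.
Gas5 (chr1:161035146-161035195, plus strand): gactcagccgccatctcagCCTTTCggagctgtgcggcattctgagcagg
Snhg8 (chr3:123508307-123508356, minus strand): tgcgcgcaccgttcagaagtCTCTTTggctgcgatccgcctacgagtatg
Snhg12 (chr4:132308658-132308707, plus strand): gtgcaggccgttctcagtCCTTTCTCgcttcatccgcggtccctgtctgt
Snhg5 (chr9:88522868-88522917, minus strand): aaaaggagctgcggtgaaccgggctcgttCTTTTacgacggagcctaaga
Zfas1, Snhg1, Snhg15, Snhg17 and the other listed start of Gas5 held no such run in this window.

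Levels of different genes are compared here per length, as CPM per kilobase of the counted gene model (RPKM). Over the 12 libraries at 6 h, Gas5 (155 ± 42.1 RPKM, SD) and Snhg1 (126 ± 50.2 RPKM) were the most abundant members, and their ranges overlapped. Zfas1 (63.2 ± 14.2 RPKM), Snhg12 (61.9 ± 15.7 RPKM), Snhg6 (61.6 ± 8.82 RPKM) and Snhg5 (61.5 ± 16.9 RPKM) followed and differed by less than their SD. Snhg8 was at 39.0 ± 9.46 RPKM, Snhg15 at 19.9 ± 5.92 RPKM, Epb41l4aos at 14.8 ± 2.94 RPKM and Snhg17 at 12.1 ± 3.08 RPKM. At 24 h, Gas5 (55.7 ± 5.42 RPKM) remained the highest, and Snhg6, Zfas1, Snhg1 and Snhg8 lay between 29.3 and 35.2 RPKM on average. The lowest Gas5 library (49.3 RPKM, CTRL replicate 3) was only just above the highest Snhg6 library (49.1 RPKM, PIO replicate 2). The counted models of Gas5 (2554 bases) and Snhg17 (3172 bases) include intronic stretches of unspliced forms, so their values per length are low relative to those of a spliced RNA. The counted model of Snhg8 (785 bases) takes up nearly the whole span of the gene (853 bases), so that the same holds for Snhg8.

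**Figure D1:**
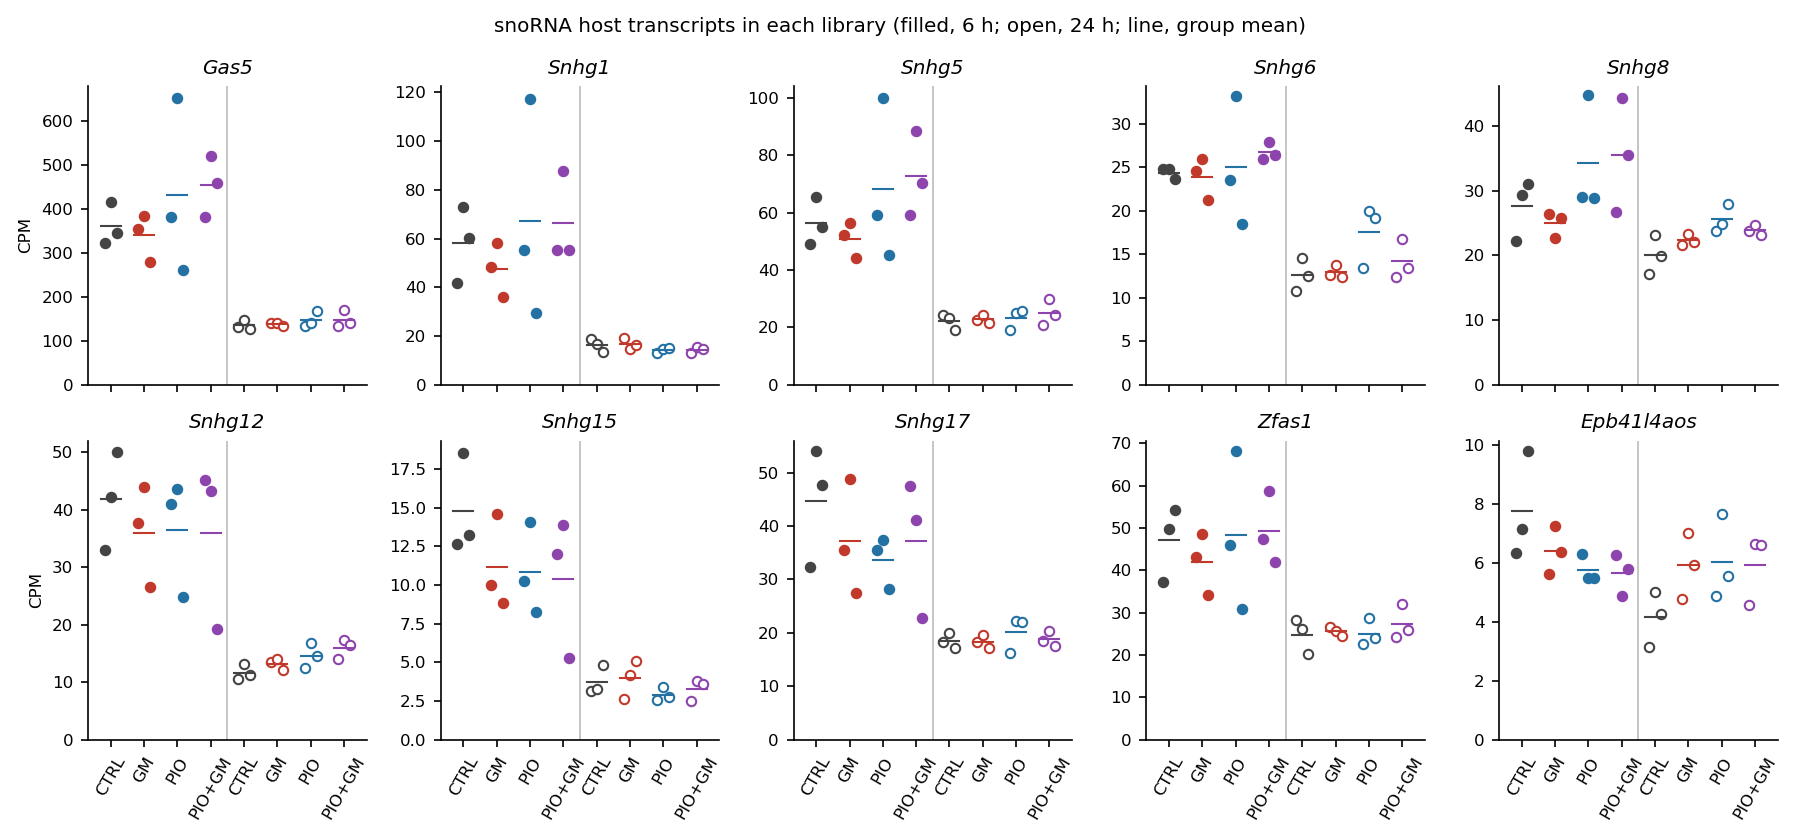
CPM of each of the 10 members (vertical axis, linear and starting at 0) in each of the 24 libraries, by treatment at 6 h (filled) and 24 h (open), with a line at the mean of each group. Gas5 ranged from 261 to 652 CPM at 6 h and from 126 to 170 CPM at 24 h, while CTRL and GM libraries overlapped for every member at both time points.

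Gentamicin did not raise the host transcripts to a degree that these libraries could show. Averaged over its 4 pairings (GM against CTRL and PIO + GM against PIO, each at 6 and 24 h), the log2 fold changes of the 10 members lay between -0.07 and 0.04, with standard errors (SE) between 0.09 and 0.17. Of the 10, 5 values were above 0 and 5 below, with a median of -0.00044 beside -0.01 over all tested genes. None of the 10 passed an adjusted p of 0.05 by the quasi-likelihood test of edgeR, none by DESeq2, and none had an unadjusted p under 0.05. Over all tested genes 0.276% were called. The upper end of the 95% interval was at most a log2 fold change of 0.30 (1.23-fold), the value for Snhg12.

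Gas5, named for its rise in growth-arrested cells, had the most counts of these transcripts and thus the least relative counting error. Its counted model includes intronic stretches, so its row may also hold reads of unspliced RNA. At 6 h, Gas5 was at 322, 416 and 345 CPM in the 3 CTRL libraries and at 354, 384 and 279.9 CPM in the 3 GM libraries. At 24 h, it was at 132, 147 and 126 CPM in CTRL and at 141, 141 and 133 CPM in GM. The values overlapped at both time points, with log2 fold changes of -0.09 (SE 0.22) at 6 h and 0.04 (SE 0.22) at 24 h. In the presence of pioglitazone, its log2 fold changes with gentamicin were 0.07 (SE 0.22) at 6 h and 0.01 (SE 0.22) at 24 h. Its interval for the mean of the 4 pairings ran from -0.23 to 0.24.

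At 6 h, all 10 members had lower values in GM than in CTRL, with log2 fold changes from -0.41 (Snhg15) to -0.03 (Snhg6) and a median of -0.19. The median lay between -0.33 and -0.061 when 1 library was left out. None of the 10 was called by edgeR or DESeq2, none had an unadjusted p under 0.05, and libraries overlapped between GM and CTRL for each of them. Of all genes, 0% were called. With pioglitazone present, the same comparison gave values between -0.05 and 0.15. The members deviate largely together from library to library, Epb41l4aos least so, and 10 like signs are not 10 separate observations.

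At 24 h, the log2 fold changes of GM against CTRL ranged from -0.01 (Snhg17) to 0.51 (Epb41l4aos), 0.0123% of all genes were called, and again none of the 10 was called by edgeR or DESeq2. Epb41l4aos, an RNA transcribed opposite to Epb41l4a, was the 1 member with an unadjusted p under 0.05 (adjusted p by edgeR, 1). Its 3 CTRL libraries were at 3.16, 5.02 and 4.28 CPM and its 3 GM libraries at 4.80, 7.03 and 5.94 CPM. These groups overlapped, although each GM library was above the CTRL library of the same number. That was also so for Snhg8 and Snhg12, while Snhg17 was lower in each pair and the other 6 members had pairs of both signs. Of the 10 log2 fold changes, 9 were above 0, with a median of 0.04. With the replicate block the log2 fold change of Epb41l4aos was 0.52 (adjusted p by edgeR, 1). For this RNA, the PIO + GM libraries did not stand above the PIO libraries (-0.03, SE 0.23). PIO + GM against PIO at 24 h gave values from -0.30 (Snhg6) to 0.17 (Snhg15), with no member called by either tool and 0.0735% of all genes called.

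The gentamicin effect was also compared between settings. At 24 h minus at 6 h, averaged over cultures with and without pioglitazone, the members' differences in log2 fold change lay between -0.17 and 0.39, and the largest, that of Epb41l4aos, was 0.39 (SE 0.23). Between cultures with and without pioglitazone, the differences lay between 0.13 and 0.41 at 6 h and between -0.53 and 0.09 at 24 h. In these 3 comparisons no member and 0% of all genes were called by edgeR, no member was called by DESeq2, and no member had an unadjusted p under 0.05.

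**Figure D2:**
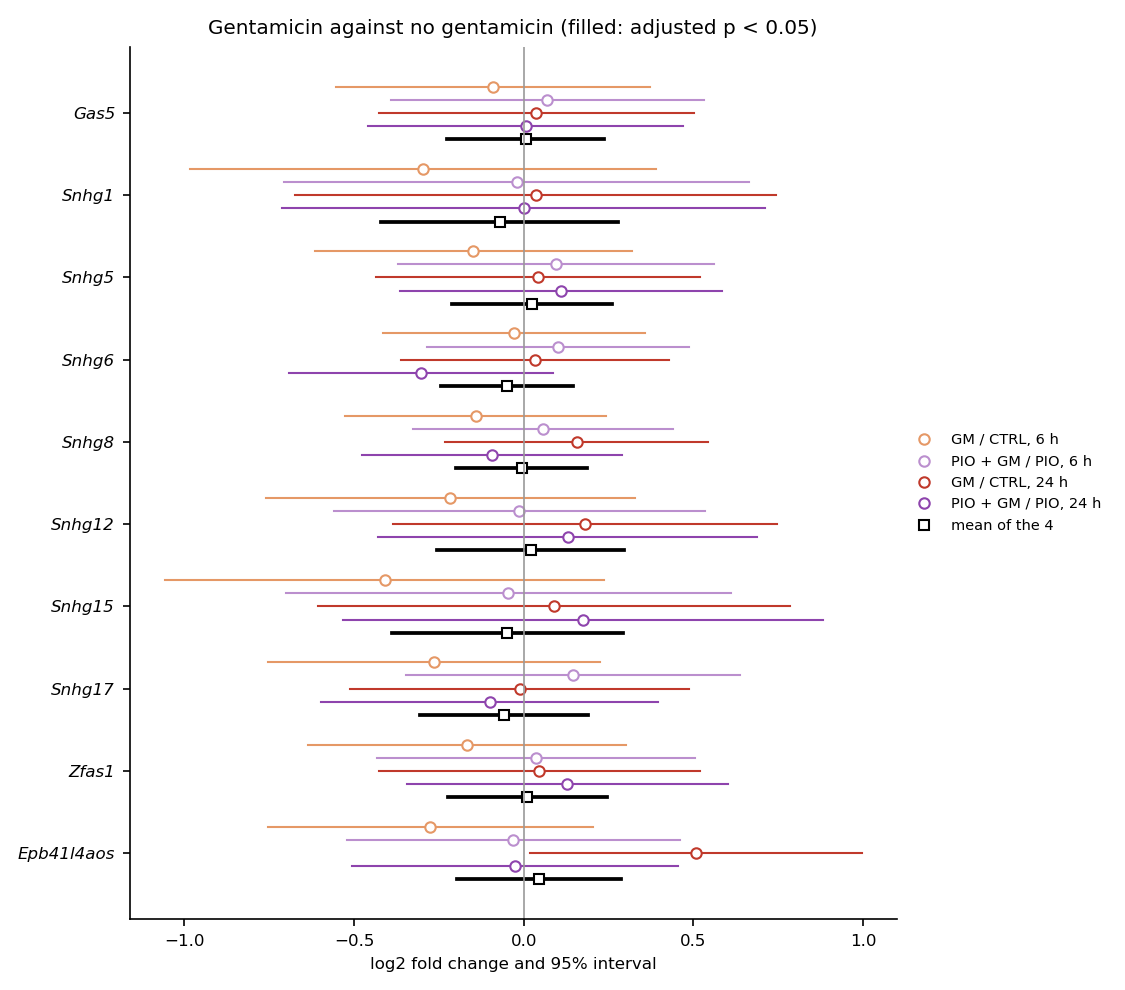
log2 fold changes with gentamicin (horizontal axis) and their 95% intervals (lines) for the 10 members, in GM against CTRL and PIO + GM against PIO at 6 and 24 h (circles) and as the mean of the 4 (squares). No symbol is filled, since no member passed the threshold, and the squares lie between -0.07 and 0.04.

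Time in culture separated the libraries. From 6 to 24 h, averaged over the 4 treatments, 9 of the 10 members fell, with a median log2 fold change over the 10 of -1.20 (0.44-fold) beside 0.02 over all tested genes. Lower calls made up 30.7% of all tested genes, and 62.6% were called in either direction, so that a call for time was common. For 6 members, the 12 libraries at 24 h all lay below the 12 libraries at 6 h, which held for 6.37% of all genes. In these bulk samples, fewer cells of a type and less RNA per cell cannot be told apart.

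Snhg1, host of 8 of the listed snoRNAs, fell most for the mean of the 4 treatments, while in CTRL Snhg15 (-1.98) and Snhg12 (-1.84) had lower values than Snhg1 (-1.83). It was at 41.9, 72.9 and 60.2 CPM in CTRL at 6 h and at 18.8, 16.7 and 13.6 CPM in CTRL at 24 h. Over all treatments it ranged from 29.4 to 117 CPM at 6 h (median 55.5) and from 13.1 to 19.3 CPM at 24 h (median 15.0), without overlap. The log2 fold change was -1.94 (SE 0.17, adjusted p by edgeR 1.53e-08), or 0.261-fold with a 95% interval from 0.203 to 0.334.

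Snhg15, a short-lived RNA known to accumulate when translation is blocked, ranged from 5.27 to 18.5 CPM at 6 h (median 12.3) and from 2.52 to 5.07 CPM at 24 h (median 3.34), with a log2 fold change of -1.75 (SE 0.16). Gas5 fell from a median of 381 CPM (261 to 652) to 139 CPM (126 to 170), with a log2 fold change of -1.47 (SE 0.11). Snhg12, which hosts 4 of the 9 counted snoRNAs, fell from a median of 41.6 CPM (19.3 to 50.0) to 13.7 CPM (10.5 to 17.4), with a log2 fold change of -1.45 (SE 0.13). These 3 showed no overlap between time points. The same was true of Snhg5, which fell from a median of 58.0 CPM (44.1 to 100.2) to 23.8 CPM (19.0 to 30.0), with a log2 fold change of -1.40 (SE 0.11). Snhg17 fell from a median of 36.5 CPM (22.8 to 54.1) to 18.5 CPM (16.3 to 22.3), or 0.498-fold, also without overlap.

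Zfas1, transcribed away from the start of Znfx1, fell by 0.86 on the log2 scale (SE 0.11), from a median of 46.7 CPM (30.9 to 68.2) to 25.8 CPM (20.2 to 31.97). Snhg6 fell by 0.82 (SE 0.09), from a median of 24.8 CPM (18.5 to 33.2) to 13.4 CPM (10.8 to 20.0), and Snhg8 by 0.40 (SE 0.09), from 29.0 CPM (22.3 to 44.8) to 23.2 CPM (17.1 to 28.0), the smallest change among the 9. For these 3 members the 2 time points overlapped. Epb41l4aos went from a median of 6.29 CPM (4.90 to 9.82) to 5.30 CPM (3.16 to 7.68) and was not called (-0.22, SE 0.12, adjusted p by edgeR 0.11). With a trend on GC content removed it was called (-0.38, adjusted p by edgeR 0.0070). The adjusted p by edgeR of the 9 called members ranged up to 0.00086, the value of Snhg8.

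The treatments were also examined one by one. In CTRL, 9 members were lower at 24 h (13.2% of all genes were called lower), in GM 8 (11.7%), in PIO 8 (15.8%) and in PIO + GM 9 (17%), and none was called higher. Snhg1, Snhg15, Gas5, Snhg12, Snhg5, Snhg6, Snhg17 and Zfas1 were called in all 4 treatments. The call of Snhg6 in PIO (-0.51) was lost in 17 of the 24 fits that each left out 1 library, that of Zfas1 in GM (-0.71) in 5, and those of Snhg17 in PIO (-0.74) and Snhg8 in PIO + GM in 3 each. Snhg6 in PIO was also not called with the GC trend removed (-0.22, adjusted p by edgeR 0.36) or without the filter on low counts (-0.46, adjusted p by edgeR 0.082). Snhg8 had log2 fold changes of -0.46 in CTRL, -0.16 in GM, -0.42 in PIO and -0.57 in PIO + GM, of which the last alone was called. In CTRL it was called by DESeq2 (-0.49, adjusted p 0.043) and with the GC trend removed (-0.45, adjusted p by edgeR 0.028). The values of Epb41l4aos were -0.90 (SE 0.23, adjusted p by edgeR 0.0078) in CTRL, -0.12 in GM, 0.07 in PIO and 0.07 in PIO + GM. Whether the time effect of Epb41l4aos differed between CTRL and any other single treatment was not tested.

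The spread at 6 h was wide in PIO. PIO replicate 2 held the highest levels of Gas5 (652 CPM), Snhg1 (117 CPM) and Snhg5 (100.2 CPM) of all libraries, and PIO replicate 3 was low in the same members (261, 29.4 and 45.3 CPM). Without PIO replicate 2 at 6 h, 5 rather than 8 members were called lower with time in PIO, and the members no longer called were Snhg6, Snhg17 and Zfas1. The mean over the 4 treatments kept its 9 calls when any 1 of the 24 libraries was left out.

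**Figure D3:**
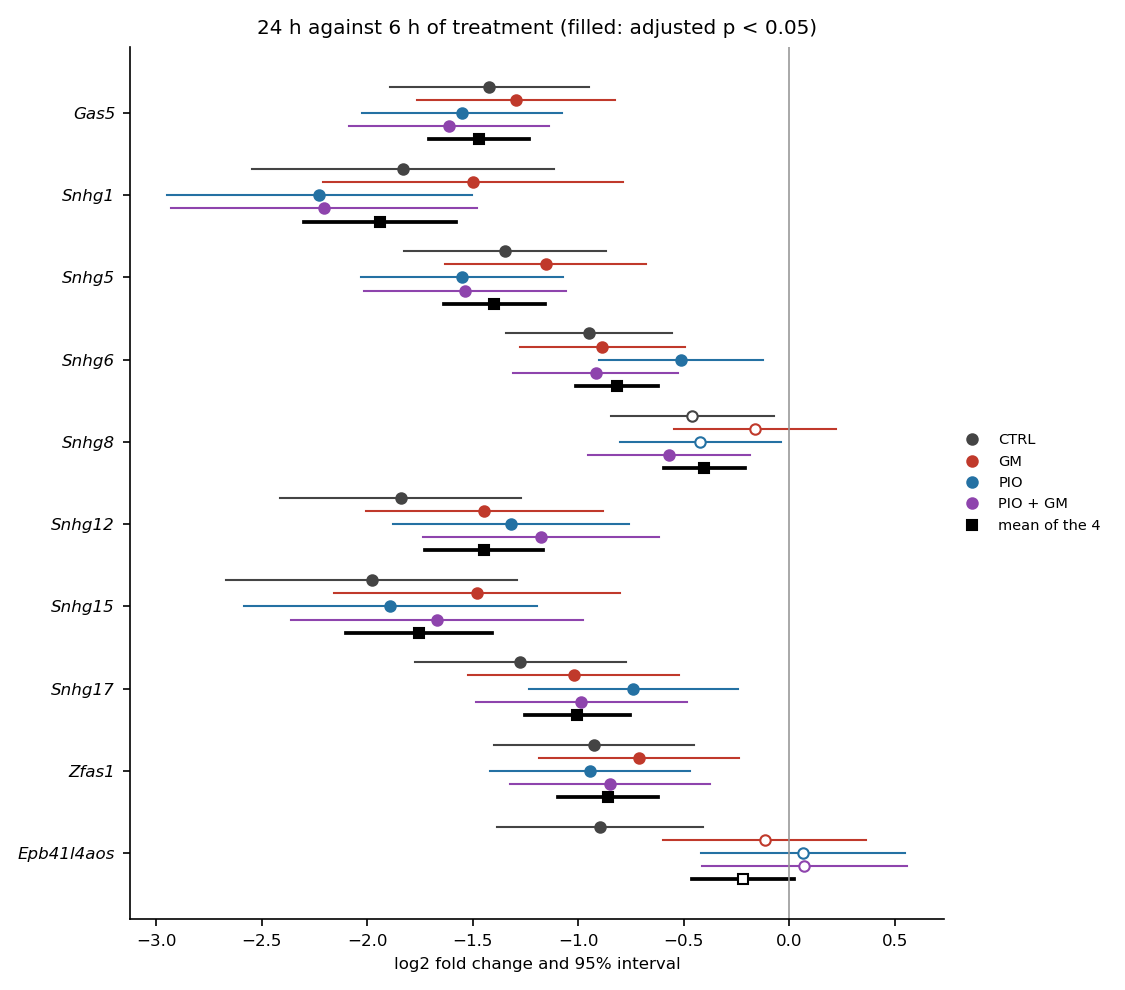
log2 fold changes at 24 h against 6 h (horizontal axis) and their 95% intervals (lines) for the 10 members, in each treatment (circles) and as the mean of the 4 treatments (squares), filled where the adjusted p was under 0.05. The squares run from -1.94 for Snhg1 to -0.22 for Epb41l4aos, the 1 open square.

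The levels of markers of other cells were summed as well. The 4 neuronal markers (Tubb3, Nefl, Nefh and Snap25) went from a median of 145 CPM (44.9 to 292) to 44.3 CPM (23.6 to 141). The 3 erythroid markers went from a median of 172 CPM (91.4 to 339) to 57.7 CPM (39.3 to 129), and the 5 macrophage markers from 34.9 CPM (29.2 to 77.1) to 66.3 CPM (36.8 to 136). None of these markers was at 0 in all libraries, and their part in the fall of the host transcripts was not tested.

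With pioglitazone 1 of the 10 members was called higher, a share near the 10.3% of all genes called higher. Snhg8 was at 27.6 ± 4.66 CPM in CTRL and 25.0 ± 1.96 CPM in GM at 6 h (SD, n = 3 here and below), and at 34.3 ± 9.12 CPM in PIO and 35.5 ± 8.77 CPM in PIO + GM. At 24 h, it was at 20.0 ± 3.04 CPM in CTRL, 22.3 ± 0.82 CPM in GM, 25.6 ± 2.17 CPM in PIO and 23.9 ± 0.78 CPM in PIO + GM. Taken over all groups, the Snhg8 values of libraries with and without pioglitazone overlapped. The mean log2 fold change over the 4 pairings was 0.32 (SE 0.09, adjusted p by edgeR 0.021). In either direction, 20.5% of all genes were called. The log2 fold changes of the other 9 lay between -0.29 (Snhg15) and 0.25 (Snhg5), and none of them was called. With the replicate block, Snhg15 was called (-0.30, adjusted p by edgeR 0.045). Without PIO replicate 3 at 6 h, 4 members were called, with Gas5, Snhg5 and Snhg6 in addition to Snhg8. In the 4 single pairings, no member was called by edgeR or DESeq2, and between 0 and 2 had an unadjusted p under 0.05. Of all genes, 0.337% and 0.153% were called in PIO against CTRL at 6 and 24 h. In PIO + GM against GM at 6 and 24 h, 1.32% and 0.11% were called. The replicate block with the GC trend removed gave 1 called member in PIO against CTRL at 24 h. Leaving out 1 library gave up to 1 in PIO + GM against GM at 6 h.

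Of the 9 counted snoRNAs, 8 were called lower at 24 h in the mean of the 4 treatments, and fewer within single treatments. Snord22 had by far the most counts (404 to 1879 in a library), and the other 8 had at most 98. In that mean, in which 30.7% of all genes were called lower, the log2 fold changes of the 8 ran from -1.90 for Snord47 to -0.50 for Snord22, and Snora44 was not called (-0.33, SE 0.17, adjusted p by edgeR 0.099), at -0.44 in CTRL, -0.01 in GM, -0.34 in PIO and -0.54 in PIO + GM. By treatment, the log2 fold change of Snord22 was -0.35 in CTRL, 0.11 in GM, -1.23 in PIO and -0.54 in PIO + GM, and of these 4 only that in PIO was called (adjusted p by edgeR 0.031). Without PIO replicate 2 at 6 h, Snord22 was at -0.18 in PIO and at -0.24 in the mean of the 4 treatments, and neither was called (adjusted p by edgeR 0.69 and 0.11). The call of Snord22 in that mean was lost without any 1 of 12 of the 24 libraries, whereas the other 7 stayed called whichever library was left out, which was tried after the values had been seen. Snora61 was at 0.13 in GM and called in CTRL alone (-1.16). For the mean of the 4 gentamicin pairings, values lay between -0.37 (Snora44) and 0.18 (Snord99), none of the 9 was called by edgeR or DESeq2, and Snora44 was the 1 with an unadjusted p under 0.05. In the single pairings, Snora61 in GM against CTRL at 24 h was the 1 with an unadjusted p under 0.05 (0.91 on the log2 scale with an SE of 0.35, adjusted p by edgeR 1). It had 7, 15 and 7 counts in CTRL and 12, 27 and 21 in GM. Its gentamicin effect at 24 h was lower with than without pioglitazone (difference -1.38, SE 0.48) but was not called either.

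In CTRL, Snord22, whose sequence is given above, was at 46.7, 82.6 and 44.7 CPM at 6 h and at 36.7, 46.7 and 52.7 CPM at 24 h. These values overlapped, whereas those of Snhg1 in the same libraries, given above, did not. Over all treatments Snord22 went from a median of 46.9 CPM (37.6 to 199) to 42.0 CPM (36.7 to 54.0). The highest value again belonged to PIO replicate 2 at 6 h.

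The ratio of snoRNA to host counts is given for the 12 libraries at 6 h and the 12 at 24 h as a description, with no test, since it was chosen after the values had been seen. The log2 ratio of Snord22 to Snhg1 was 0.03 ± 0.38 (SD) at 6 h and 1.51 ± 0.30 at 24 h, a difference of 1.47. The 2 time points did not overlap, and the difference was 1.5 in CTRL, 1.57 in GM, 1.13 in PIO and 1.69 in PIO + GM.

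In Snhg12, the mean log2 ratio at 24 h was higher by 1.09 for Snora44 and by 0.84 for Snora61. For Snora16a and Snord99 of the same host, the differences were 0.31 and -0.07. That of Snora16a was 0.58 in CTRL, 0.43 in GM, 0.56 in PIO and -0.34 in PIO + GM. That of Snord99 ran from -0.41 in PIO to 0.13 in GM. In Gas5 the difference for Snord47 was -0.067 in CTRL, -0.39 in GM, -0.80 in PIO and -0.47 in PIO + GM, and the counted model of Gas5 includes introns. The differences were -0.84 for Snord87 to Snhg6, -0.63 for Snord12 to Zfas1 and -0.24 for Snora24 to Snhg8. That of Snord87 ran from -0.05 in PIO to -1.67 in PIO + GM. For Snora24 it was 0.50 in CTRL, -0.22 in GM, -0.58 in PIO and -0.65 in PIO + GM. The counted model of Snhg8 also includes intronic bases. RNA libraries of this kind capture mature snoRNAs poorly, and reads of unspliced host RNA may start within a snoRNA. These rows may thus mix both, in shares that were not measured.

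**Figure D4:**
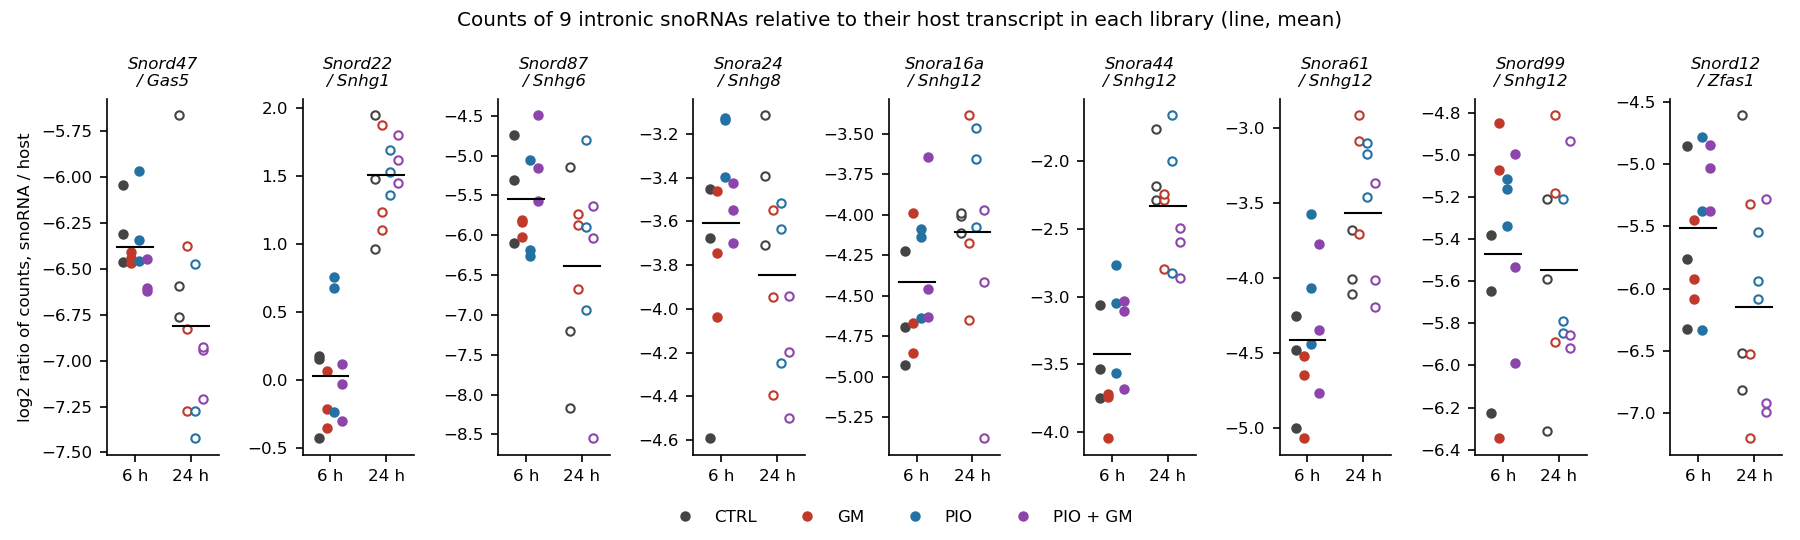
log2 ratio of snoRNA to host counts (vertical axis, a scale of its own for each pair) in each of the 24 libraries for the 9 counted snoRNAs, at 6 h (filled) and 24 h (open), coloured by treatment, with a line at the mean of each time point. For Snord22 and Snhg1 the means are 0.03 at 6 h and 1.51 at 24 h and the time points do not overlap, while for the other 8 pairs they do.

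Some members share their start or exons with a gene on the other strand, and whether the counting used the strand is not given in the sources used here. Snhg1 begins 106 bases from the start of Slc3a2, the heavy chain of amino acid transporters, which fell as well, from 229 to 88.8 CPM on average (log2 fold change -1.37, SE 0.11). Gas5 begins 427 bases from Zbtb37, which rose by 0.20 (SE 0.07, adjusted p by edgeR 0.015). Zfas1 begins 81 bases from Znfx1 and overlaps 82 bases of its exons, and Znfx1 was not called (-0.12, SE 0.12). Snhg6 overlaps 127 exonic bases of Mcmdc2, which had 0.779 CPM at 6 h and 0.833 CPM at 24 h. Apart from Slc3a2, these neighbours did not fall as the members did, and none of the 4 was called for gentamicin.

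The machinery that clears these transcripts was examined through gene lists, beside 30.7% of all genes called lower and 62.6% in either direction. Of 15 NMD factors, 9 were lower at 24 h, 3 higher and 3 not called, with a median log2 fold change of -0.31. Among those with the lowest p were the translation termination factors Gspt1 (-0.81, SE 0.06) and Etf1 (-1.09, SE 0.10) and the kinase Smg1 (-0.50, SE 0.06), which phosphorylates UPF1. The helicase Upf1 itself changed by -0.31 (SE 0.11). Dhx34, Smg6 and Nbas were higher. Of 6 genes of the exon junction complex, which marks spliced junctions, Magoh (-0.71, SE 0.11), Magohb (-0.49, SE 0.13), Eif4a3 (-0.27, SE 0.06) and Rbm8a (-0.15, SE 0.06) were lower and none was higher. Of 6 genes for decapping and 5′ to 3′ decay, Dcp1b was higher (0.78, SE 0.11) and Dcp2 and Dcp1a lower.

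All 9 stress genes whose messenger RNAs are known as NMD-sensitive fell with time, with a median log2 fold change of -1.47 (30.7% of all genes were called lower). Ifrd1 (-1.84, SE 0.12), Atf4 (-1.47, SE 0.13), a transcription factor of the integrated stress response, and its targets Ddit3 (-1.53, SE 0.14) and Trib3 (-2.46, SE 0.25) had the lowest p. These genes are also controlled by transcription and by translation, which the counts do not separate. Each of the 9 was called lower in CTRL (13.2% of all genes), PIO (15.8%) and PIO + GM (17%), and 7 of the 9 in GM (11.7%).

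Other snoRNA hosts were called in both directions, more often lower than higher. Of all genes, 30.7% were called lower with time and 62.6% in either direction. Of 11 further noncoding hosts, 5 were lower, with Snhg4 (-1.93, SE 0.12), Snhg3 (-1.34, SE 0.12) and Snhg16 (-0.94, SE 0.11) first by p, and 2 were higher, among them Snhg18 (0.98, SE 0.08). Of 25 protein-coding hosts, 12 were lower and 2 higher, with a median of -0.08. The lower ones with the lowest p were Nop56 (-2.21, SE 0.13) and Nop58 (-1.68, SE 0.15), core proteins of box C/D particles, Ncl (-1.23, SE 0.11), a nucleolar protein, and Eif4a1 (-0.88, SE 0.06), a helicase of translation initiation. The higher ones were Eef2 (0.42, SE 0.09) and Rpl13a (0.23, SE 0.06).

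None of the 72 genes of these 6 lists was called by edgeR or DESeq2 for the mean effect of gentamicin, none had an unadjusted p under 0.05, and the medians of the lists lay between -0.02 and 0.01 on the log2 scale. The values with the lowest p were -0.08 for Smg8 and 0.07 for Upf3a among NMD factors, -0.36 for Chac1 and -0.09 for Ddit3 among stress genes, and -0.22 for Dancr and -0.49 for Snhg9 among other noncoding hosts. They were 0.04 for Rbm8a and -0.04 for Rnps1 among exon junction genes, -0.12 for Rps12 and -0.06 for Tnpo2 among protein-coding hosts, and 0.08 for Xrn1 and 0.06 for Dcp2 among decay genes. For pioglitazone, where 10.3% of all genes were called higher and 20.5% in either direction, 4 NMD factors were called higher by edgeR, Upf3b (0.32, SE 0.08), Pnrc2 (0.35, SE 0.09), Smg1 (0.21, SE 0.06) and Smg8 (0.17, SE 0.05). Dcp2 (0.26, SE 0.05) and Xrn1 (0.13, SE 0.05), the 5′ to 3′ exonuclease, were also higher. Among the stress genes, Gadd45a was higher (0.36, SE 0.12) and Cdkn1a lower (-0.44, SE 0.14). Of the other hosts, Taf1d was higher (0.44, SE 0.11) and Snhg18 lower (-0.28, SE 0.08).

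**Figure D5:**
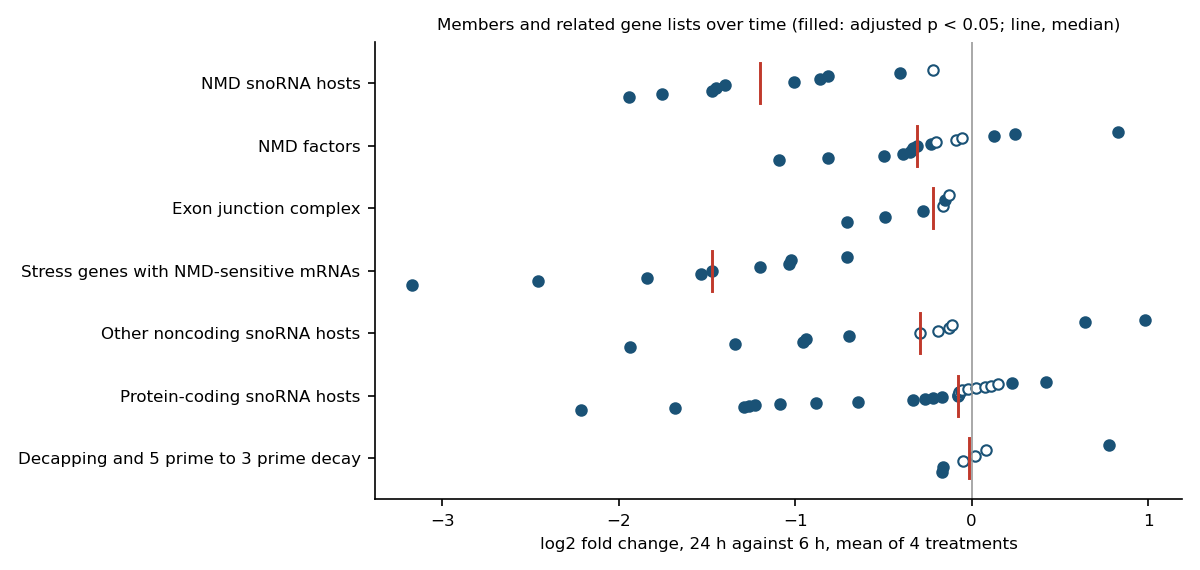
log2 fold change at 24 h against 6 h, averaged over the 4 treatments (horizontal axis), for the 10 members and for the genes of 6 related lists, filled where the adjusted p was under 0.05, with a line at the median of each list. The medians are -1.20 for the members, -0.31 for NMD factors, -1.47 for the stress genes and -0.08 for protein-coding snoRNA hosts.

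Members deviated from their group means largely together. Over the 24 libraries, the median Pearson r between pairs of members was 0.53 (45 pairs, from -0.03 to 0.94) for deviations of log2 CPM from the group means. Pairs share their libraries and depth. Pairs of other genes were not correlated, so whether this r is particular to the members was not tested. The median r between members was 0.58 over the 12 libraries at 6 h and 0.52 over the 12 at 24 h. Over all libraries without PIO replicates 2 and 3 at 6 h it was 0.42. Epb41l4aos was least like the others (median r of 0.19). Among 16272 other genes, those whose deviations were most like the mean of the members were Mtbp (r = 0.93), Sdad1 (0.91), Gnl3 (0.90), Utp15 (0.90) and Tma16 (0.90), and without those 2 libraries their r lay between 0.81 and 0.87. For the undivided log2 CPM, which fall into clusters by time, the genes most like the members were Sdad1, Gnl3, Lancl3, Nepro and Yars2.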

How the data were processed

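RNA of 24 OC libraries was sequenced on an Illumina NextSeq after stranded preparation of total RNA. The authors mapped reads with STAR (genome build mm10 per the labels) and deposited raw counts. A read counts for a gene if it begins in a RefSeq exon of that gene. Another column gives the length of each gene in bases. How strand and reads with several matches were handled is not given in the sources used here. Entrez identifiers were matched to symbols for 24374 of 24454 rows.

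These counts were fitted by edgeR 4.0.16 under R 4.3.3 with TMM factors, the filterByExpr filter, 1 mean per group over all 24 libraries and the quasi-likelihood F-test. Benjamini-Hochberg adjustment of p-values ran over 16317 genes, with a threshold of 0.05, and "called" means past it. SE were derived from the F statistic, and CPM and RPKM use TMM-scaled library sizes. The common biological coefficient of variation was 0.225. At these depths 3 counts equal 0.193 to 0.416 CPM, which covers counting error only. Replicates of a group differed more than sampling noise (chi-square per degree of freedom at least 10.2), and treatments were run in triplicate. Whether triplicates came from separate dissections is not given in the sources used here, so p-values measure only the spread between these libraries, which may be technical.

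Replicate numbers in the labels were checked as pairs. At 24 h, libraries with the same number deviated together in GM against CTRL, PIO + GM against PIO and PIO against CTRL. Each correlation there was over 0.1, with means of 0.58, 0.47 and 0.30. In PIO + GM against GM at 24 h the mean was 0.35, with 2 of 3 correlations over 0.1. At 6 h the means ran from -0.06 to 0.12. Of 18 pairs with the same number, 9 were over 0.1 at 6 h and 15 at 24 h. The pairing thus comes from the data, not from a label. Alternatives were DESeq2 1.42.0, no TMM factors, no filter, at least 10 counts in every library, the replicate block, the 12 libraries of a time point, removal of a GC trend (all 10 members had a GC content) and leaving out each library. The averaged gentamicin test was also run on simulated counts, with shifts larger than the averaged values of the members. These counts held no time, pioglitazone or replicate-number effects. The run thus cannot show how smaller shifts in real libraries are handled.

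The members and lists were chosen with earlier results of these data known. Named genes are all members, for each list up to 4 called genes per comparison with the lowest p (or the 2 with the lowest p for gentamicin), neighbours on the other strand, and the 5 genes most like the members. Upf1, Dhx34, Smg6, Nbas, Eef2 and Rpl13a fall outside this rule and were named after their values were seen. A gene that the rule would name and the sum of a further marker list are not reported here. Marker lists for supporting cells, the tectorial membrane and otic mesenchyme were also summed, and had medians of 321, 6491 and 1766 CPM at 6 h and of 369, 7441 and 2055 CPM at 24 h. Figures were drawn with matplotlib 3.10.9 in Python 3.11.15. Gene positions come from GENCODE on build GRCm38.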

Additional observations from a re-analysis of the deposited data

How the results depend on the processing

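Under every alternative tried, 0 members were called for gentamicin in its 4 pairings and in their mean, and 9 were called for time averaged over the treatments in each leave-one-out fit and under the other alternatives, except that removal of the GC trend gave 10 (Epb41l4aos in addition). The replicate block gave 2 members for pioglitazone averaged over its pairings instead of 1 (Snhg15 in addition), and with the GC trend removed it gave 1 instead of 0 in PIO against CTRL at 24 h. Among the lists it gave 2 instead of 0 exon junction genes and 4 instead of 1 protein-coding hosts, the former 1 without TMM factors. The block changed no other count of called members, and it was not fitted for 24 h against 6 h, where libraries with the same number did not deviate together. The cause of these shifts was not tested. Over all genes, 45 were called for the mean of gentamicin, against 111 by DESeq2, 81 with the block and 8 with at least 10 counts in every library, and 2 for GM against CTRL at 24 h, against 15, 12 and 0.

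Leaving out 1 library at a time moved members called between 0 and 1 for PIO + GM against GM at 6 h, between 9 and 10 for time in CTRL, 7 and 8 in GM, 5 and 9 in PIO and 7 and 9 in PIO + GM, and between 1 and 4 for the mean of pioglitazone. The median of the members moved from -0.15 to 0.32 for PIO + GM against PIO at 6 h, from -0.32 to 0.24 for PIO against CTRL at 6 h, from -1.35 to -0.89 for time in PIO, from -1.35 to -0.95 for time in PIO + GM, and from -0.00011 to 0.51 for the gentamicin effect with minus without pioglitazone at 6 h. The 1 was without PIO + GM replicate 1 or PIO replicate 2 at 6 h, the 5 without PIO replicate 2 at 6 h, the 4 without PIO replicate 3 at 6 h (Gas5 0.29, Snhg5 0.30 and Snhg6 0.24 in addition), and the 7 in PIO + GM without PIO + GM replicate 2 at 6 h (Snhg8 -0.37 and Zfas1 -0.70 lost).

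Signs of values near 0 that were not called changed with the setting. For the mean of gentamicin, Snhg8 was at 0.00066 by DESeq2, 0.0066 with at least 10 counts, 0.0035 without TMM factors and 0.00065 with the block, Gas5 at -0.0047 with the GC trend removed and -0.0026 with the block too, and Snhg12 at -0.00097 with the block and -0.0048 with both. Snhg17 was at 0.011 for GM against CTRL at 24 h with at least 10 counts, and Snhg6 at 0.0057 at 6 h without TMM factors. With the GC trend removed, Epb41l4aos was at -0.15 for time in PIO, -0.23 for time in PIO + GM and 0.12 for pioglitazone (0.12 with the block, 0.0021 with at least 10 counts), and Snhg1 was at -0.090 for pioglitazone (-0.11 with the block). The ratio of Snord99 to Snhg12 was at 0.020 with 1 added to the counts.

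Leave-one-out ranges that crossed 0 were, for the mean of gentamicin, -0.054 to 0.11 for Gas5, -0.028 to 0.093 for Snhg12, -0.11 to 0.028 for Snhg15, -0.11 to 0.0041 for Snhg17, -0.15 to 0.095 for Snhg1, -0.025 to 0.12 for Snhg5, -0.090 to 0.013 for Snhg6, -0.055 to 0.053 for Snhg8 and -0.043 to 0.093 for Zfas1. For GM against CTRL at 24 h they were -0.010 to 0.10 for Gas5, -0.12 to 0.30 for Snhg15, -0.066 to 0.045 for Snhg17, -0.081 to 0.14 for Snhg1, -0.055 to 0.11 for Snhg5, -0.066 to 0.15 for Snhg6 and -0.082 to 0.15 for Zfas1, and at 6 h -0.18 to 0.039 for Gas5 and -0.082 to 0.059 for Snhg6. For pioglitazone they were -0.073 to 0.029 for Epb41l4aos, -0.12 to 0.0016 for Snhg17 and -0.098 to 0.15 for Snhg1, and for time -0.26 to 0.013 in GM, -0.14 to 0.20 in PIO and -0.020 to 0.24 in PIO + GM for Epb41l4aos.

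With 3 libraries in a group, SE of the log2 fold changes of members lay between 0.18 and 0.34 in single pairings and values of over 2 SE were not called there (Epb41l4aos 0.51 in GM against CTRL at 24 h), and Epb41l4aos and Snhg15 had as few as 36 and 32 counts in a library.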
